A study of Rattus norvegicus with 24 samples.

Results

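The miR-15, miR-16 and miR-195 family is a set of microRNAs that share 1 seed, and 4 of its members were followed in rat lung after inhalation of hexanal. The members, rno-miR-15b-5p, rno-miR-16-5p, rno-miR-195-5p and rno-miR-497-5p in full, were taken by name as the 5p arms on a rat miRNA microarray. They are 4 of the 719 miRNAs on the array and 4 of the 283 that passed the filter on dim probes. The lungs came from 24 Fischer-344 rats that were 7 to 8 weeks old. The control group breathed filtered clean air, and the exposed groups breathed hexanal at 600, 1000 or 1500 ppm. Hexanal is a volatile aldehyde with a short carbon chain that forms when fats oxidise. Exposure ran for 4 hours a day on 5 days a week over 5 weeks, and each of the 4 groups held 6 rats, 3 male and 3 female. The doses are named as in the sample titles, whereas the exposure protocol gives the same numbers in mg/m3. Total RNA was labelled with the dye Cy3 and each rat had an array of its own.

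A microRNA guides Argonaute to messenger RNAs, mainly by pairing of its seed, the bases 2 to 8 of the mature strand, and the paired transcript is then repressed or degraded. The miR-15 family is known as a brake on the cell cycle and on survival: its targets include D-type cyclins, cyclin E, the checkpoint kinases Chek1 and Wee1, and the antiapoptotic gene Bcl2. In lung, miR-195 and miR-497 are known for low levels in many tumours. The family is spread over several clusters, so the same seed can be supplied from different transcripts.

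The mature sequences are shown because the shared seed is what makes these miRNAs a family. They are given 5′ to 3′ from RefSeq (rat assembly GRCr8), and the capitals mark bases 2 to 8.
rno-miR-15b-5p: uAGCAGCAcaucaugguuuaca
rno-miR-16-5p: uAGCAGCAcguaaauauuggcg
rno-miR-195-5p: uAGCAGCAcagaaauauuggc
rno-miR-497-5p: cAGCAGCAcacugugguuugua
All 4 members held the seed AGCAGCA, which pairs with the letters TGCTGCT of a target. Of the 693 mature rat miRNAs in the reference table, 5 (0.722%) carried this seed and 6, these 5 among them, shared its bases 2 to 7. Outside the seed the members differed. Without gaps and counted from the 5′ end, miR-16-5p and miR-195-5p were the closest pair, with 19 of 21 positions identical (90.5%) and the substitutions G10A and U11G. The least alike were miR-16-5p and miR-497-5p, with 11 of 22 positions identical. miR-15b-5p and miR-497-5p shared 16 of 22 (72.7%).

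The members lie in 2 clusters of GRCr8, both read from the plus strand. Mature miR-15b-5p lies at chr2:155555197-155555218 and miR-16-5p at chr2:155555343-155555364, so both fit in 168 bases, inside the protein-coding gene Smc4, a subunit of the condensin complex that compacts chromosomes. Mature miR-497-5p lies at chr10:55450172-55450193 and miR-195-5p at chr10:55450509-55450529, within 358 bases, and no annotated protein-coding gene spans them.

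The arrays were run on 3 slides of 8, and slide was tied to sex and dose. Slide 1 carried only males: the 3 of the control group, the 3 of the 600 ppm group and 2 of the 1000 ppm group. The 8 females on slide 3 had all been exposed, 2 to 600 ppm, 3 to 1000 ppm and 3 to 1500 ppm. Both sexes met on slide 2 alone, where all control females, the last female of the 600 ppm group, the last male of the 1000 ppm group and all males of the 1500 ppm group were run. Before scaling, the 75th percentile of intensity ranged from 677 to 1226 for the arrays of slide 1, from 662 to 766 for those of slide 2 and from 772 to 1063 for those of slide 3. The lung markers miR-126a-3p (endothelium) and the miR-200 family (epithelium) were above background on all 24 arrays. Slide accounted for a median of 37.6% of the variance over the 283 miRNAs, sex for 17.4% and dose for 13.8%. Here and below each factor was fitted alone, so the shares overlap, and a factor with more levels takes up more variance by chance. All p-values below come from limma over the 283 miRNAs or, where named, over 555 probes, with Benjamini-Hochberg adjustment, and a miRNA is called at an adjusted p below 0.05.

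All 4 members were above background on every array, and at no dose did their levels separate from the control group. Levels are the log2 of scaled intensity, and they are not set against each other because probes differ in how well they bind. In the control group miR-15b-5p lay between 9.01 and 9.63 with a median of 9.30. It lay between 8.90 and 9.40 (median 9.16) at 600 ppm, between 8.89 and 9.53 (9.29) at 1000 ppm and between 9.08 and 9.47 (9.35) at 1500 ppm. The 4 ranges overlapped, and the lowest rat was a male at 1000 ppm.

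miR-16-5p, which is encoded beside miR-15b, was the steadiest of the members from rat to rat. It lay between 12.07 and 12.25 (median 12.11) in the control group and between 12.03 and 12.24 (12.11) at 600 ppm. At 1000 ppm it lay between 11.94 and 12.31 (12.08), and at 1500 ppm between 12.02 and 12.24 (12.16). Each exposed range overlapped the control range, and the widest was that of 1000 ppm.

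miR-195-5p lay between 10.83 and 10.97 (median 10.91) in the control group and between 10.81 and 10.92 (10.90) at 600 ppm. It then lay between 10.64 and 10.98 (10.82) at 1000 ppm and between 10.71 and 11.09 (10.85) at 1500 ppm. Here 5 of the 6 rats at 1000 ppm were below the control mean, although the ranges overlapped. Its neighbour miR-497-5p lay between 10.60 and 10.80 (median 10.66) in the control group and between 10.57 and 10.80 (10.66) at 600 ppm. It lay between 10.43 and 10.68 (10.60) at 1000 ppm and between 10.55 and 10.90 (10.69) at 1500 ppm, again overlapping the control range.

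**Figure D1:**
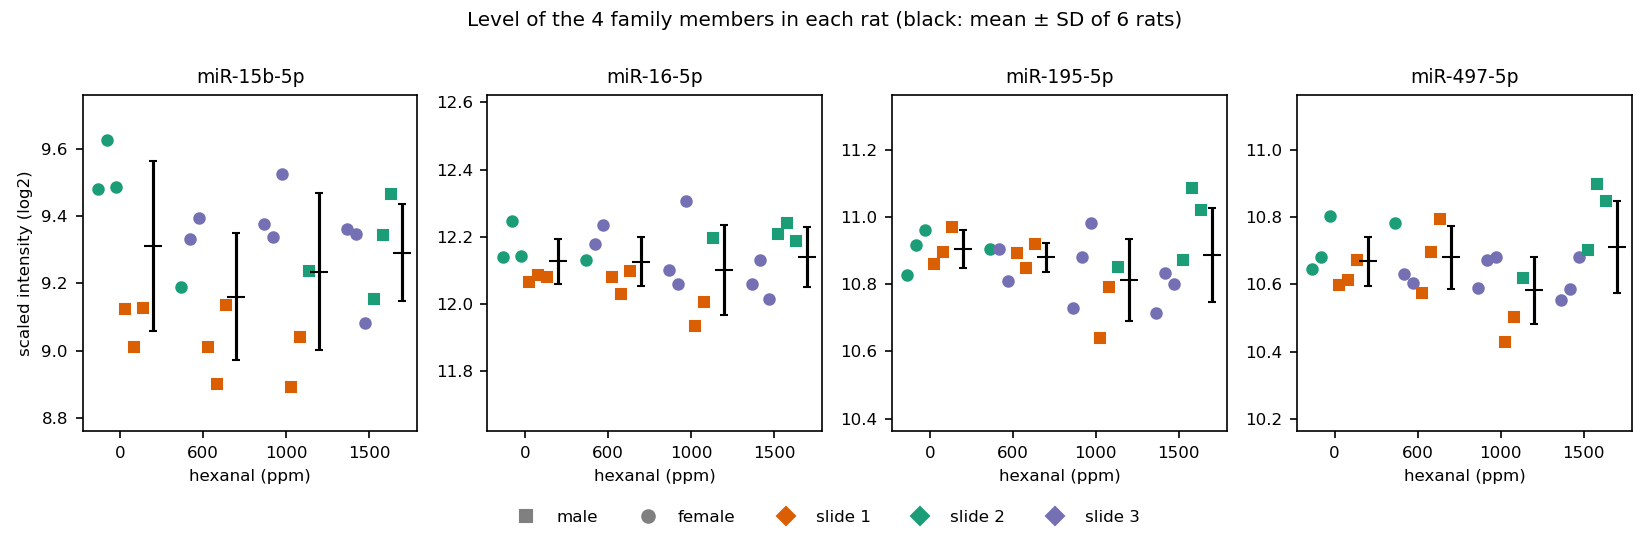
Log2 scaled intensity of each member (y axis) in each rat of the control group and of 600, 1000 and 1500 ppm (x axis), with males and females and the 3 slides marked separately. In all 4 panels the exposed groups overlap the control group, and miR-15b-5p shows the widest scatter.

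The spread between rats set what could be detected. The SD within dose groups was 0.21 for miR-15b-5p, 0.09 for miR-16-5p, 0.10 for miR-195-5p and 0.10 for miR-497-5p, against a median of 0.18 over the 283 miRNAs. The last 3 members thus varied less than most miRNAs, at the 10.6th, 12.7th and 14.8th percentile of SD, and miR-15b-5p was at the 59.4th. As these are bulk lung samples, fewer cells of a type and less RNA per cell cannot be told apart.

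None of the members was called at any dose, and none of the 283 miRNAs was (0%). At an unadjusted p below 0.05 there were 5 miRNAs (1.77%) at 600 ppm, 17 (6.01%) at 1000 ppm and 26 (9.19%) at 1500 ppm, and no member was among them. miR-15b-5p differed from the control group by -0.15 at 600 ppm, -0.08 at 1000 ppm and -0.02 at 1500 ppm (log2, SE 0.12, limma adjusted p = 0.996, 0.991 and 0.985). Its 95% interval at 1500 ppm ran from -0.26 to 0.23, which is 0.834-fold to 1.17-fold. miR-16-5p differed by -0.0021, -0.03 and 0.01 (SE 0.06, adjusted p = 0.996, 0.991 and 0.964), with an interval from -0.11 to 0.14 at 1500 ppm. The widest reach of an interval was -0.39 for miR-15b-5p at 600 ppm and -0.15 for miR-16-5p at 1000 ppm, each beyond the SD within dose groups, so the intervals do not show that the doses act alike.

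In the second cluster the values at 1000 ppm were the lowest. miR-195-5p differed from the control group by -0.03, -0.09 and -0.02 at 600, 1000 and 1500 ppm (SE 0.06, limma adjusted p = 0.996, 0.812 and 0.943). miR-497-5p differed by 0.01, -0.09 and 0.04 (SE 0.06, adjusted p = 0.996, 0.860 and 0.751). At 1000 ppm the 95% intervals ran from -0.22 to 0.03 for miR-195-5p and from -0.22 to 0.05 for miR-497-5p, both including 0. A single test of all doses gave adjusted p-values of 0.822, 0.961, 0.792 and 0.711 for miR-15b-5p, miR-16-5p, miR-195-5p and miR-497-5p, and 0 of 283 miRNAs were called (15 at an unadjusted p below 0.05, 5.3%).

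The signs of the small dose differences depended on the scaling for every member: that of miR-15b-5p at 1500 ppm, those of miR-16-5p at 1000 and 1500 ppm, that of miR-195-5p at 1500 ppm and those of miR-497-5p at 600 and 1500 ppm each turned under at least 1 scaling or background correction. With slide as a block in the model, miR-15b-5p stood at -0.16, -0.15 and -0.22 at the 3 doses (SE 0.07, unadjusted p = 0.0347, 0.0514 and 0.00894, limma adjusted p = 0.588, 0.560 and 0.325). The other members stood between -0.06 and 0.05, and 0 of 283 miRNAs were called with the block, with 23 (8.13%), 24 (8.48%) and 24 (8.48%) at an unadjusted p below 0.05. That model held no term for sex. The control group and 1500 ppm share only slide 2, where all control rats were female and all rats at 1500 ppm male, so these differences also carry sex.

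**Figure D2:**
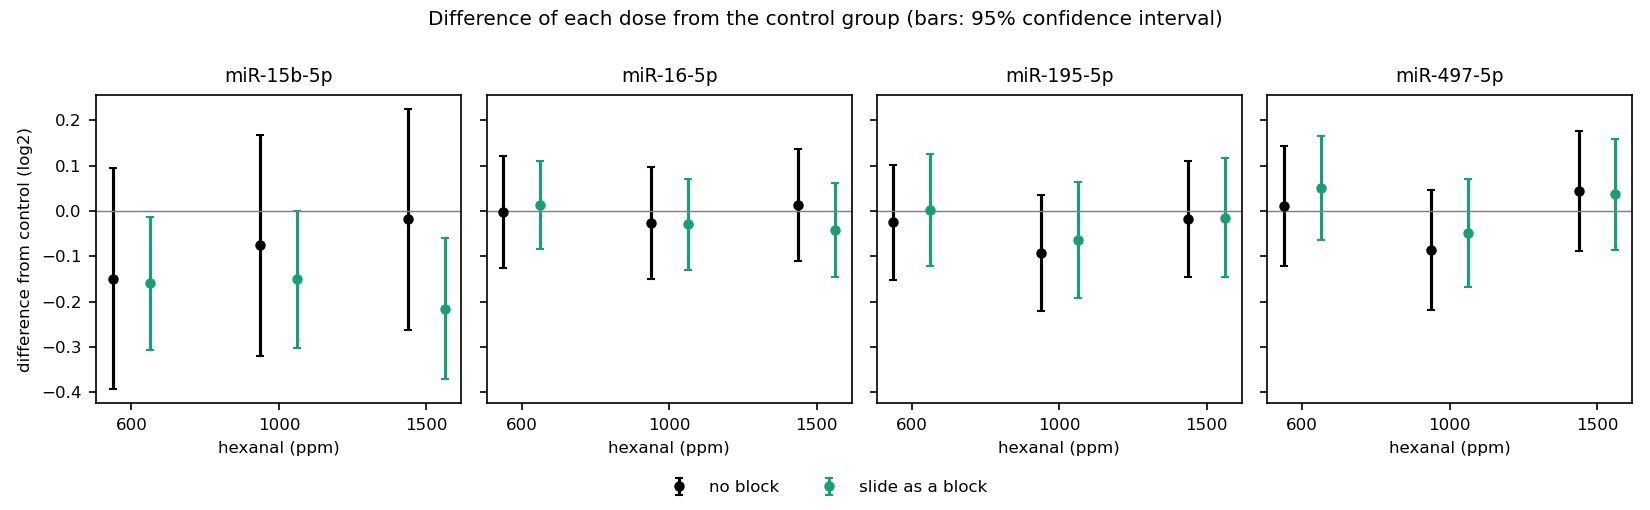
Difference of each dose from the control group (y axis, log2) for the 4 members at 600, 1000 and 1500 ppm (x axis), without and with slide as a block, with bars for the 95% confidence interval (n = 6 rats a group). The intervals of miR-16-5p, miR-195-5p and miR-497-5p all include 0, and with the block those of miR-15b-5p at 600 and 1500 ppm lie below 0, although neither passed adjustment over the 283 miRNAs. The model with the block held no term for sex.

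Comparisons inside a slide hold the slide constant, and 6 could be made. The clearest was among the males of slide 1, between 2 rats at 1000 ppm and 3 control rats. For miR-16-5p these rats measured 11.94 and 12.01 against 12.07, 12.08 and 12.09. For miR-195-5p they measured 10.64 and 10.79 against 10.86, 10.89 and 10.97, and for miR-497-5p 10.43 and 10.50 against 10.60, 10.61 and 10.67. In these 3 members both rats at 1000 ppm were below every control rat, and so they were for 45 of the 283 miRNAs (15.9%). miR-15b-5p overlapped, with 8.89 and 9.04 against 9.01, 9.12 and 9.13.

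The differences in that comparison were -0.11 for miR-16-5p, -0.19 for miR-195-5p and -0.16 for miR-497-5p (unadjusted p = 0.0448, 0.0409 and 0.0227), and the limma adjusted p was 0.645 for each, with 0 of 283 called (0%). At an unadjusted p below 0.05 there were 20 of 283 miRNAs (7.07%) in it. The third male at 1000 ppm was run on slide 2 and measured 12.20, 10.85 and 10.62 for these members. Among the females of slide 3, 1500 ppm against 1000 ppm gave -0.15 for miR-15b-5p, -0.09 for miR-16-5p, -0.08 for miR-195-5p and -0.04 for miR-497-5p. No member was called in any of the 6 comparisons inside a slide.

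Between the sexes miR-15b-5p was the only member called, and its difference was not separable from slide. In females it lay between 9.08 and 9.63 (median 9.37) and in males between 8.89 and 9.47 (median 9.13), so the ranges overlapped, and 10 of 12 males were below the female mean at their own dose. Male minus female was -0.26 ± 0.06 (SE, n = 12 and 12, limma adjusted p = 0.00349), a 0.836-fold level in males, but 0.03 ± 0.12 (adjusted p = 0.903) once slide was a block in the model. Within slide 2, where 4 males and 4 females were run together, it was -0.15 ± 0.11 (adjusted p = 0.485), with males between 9.15 and 9.47 and females between 9.19 and 9.63. No dose was shared by the sexes there. The males were at 1000 or 1500 ppm and the females in the control group or at 600 ppm, so sex and dose cannot be told apart within slide 2. The call stands against a background in which 124 of 283 miRNAs (43.8%) were called between the sexes, 46 higher in males (16.3%) and 78 lower (27.6%). That split depended on the scaling and reached 58 higher and 4 lower in the series table without scaling. With the slide block 10 were called (3.53%), and within slide 2 20 were (7.07%).

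The other members were not called between the sexes on the mean of their probes. Male minus female was -0.04 for miR-16-5p (95% interval -0.13 to 0.04, limma adjusted p = 0.378), a sign that turned under 4 other scalings, 0.03 for miR-195-5p (-0.06 to 0.12, 0.569) and 0.0034 for miR-497-5p (-0.09 to 0.10, 0.958). The slide block moved these to 0.18, 0.17 and 0.08 (adjusted p = 0.197, 0.339 and 0.666). Slide accounted for 60.9% of the variance of miR-15b-5p, 43.2% of that of miR-16-5p, 19.1% of that of miR-195-5p and 33.8% of that of miR-497-5p, more than sex or dose in each case. Dose accounted for 8.53%, 2.64%, 13.2% and 20.4%, against the median of 13.8% over all 283 miRNAs.

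Slide could also be compared within a sex, although dose then differs between the slides. In males, slide 2 minus slide 1 was 0.27 for miR-15b-5p and 0.16 for miR-16-5p (limma adjusted p = 0.0044 and 0.00267), and both were called, as were 145 of 283 miRNAs (51.2%). It was 0.11 for miR-195-5p and 0.16 for miR-497-5p (adjusted p = 0.187 and 0.0814). In females, slide 3 minus slide 2 was between -0.10 and -0.03 for the members, with none called, against 14 of 283 (4.95%).

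Single probes of the members were also compared between slides. Each member was measured by 2 probes with 10 spots each, all above background on all arrays, and the median SD between the spots of a probe was 0.06 to 0.11. That both probes of a member respond alike to the same miRNA was assumed and not tested. On that premise the log2 difference between the brighter and the dimmer probe does not depend on the rat. It was steady inside a slide and moved between slides. Set to 0 at the mean of slide 1, it stood at 0.57 ± 0.03 on slide 2 and 0.44 ± 0.02 on slide 3 for miR-15b-5p (SD, n = 8 arrays each). For miR-16-5p it stood at 0.38 ± 0.04 and 0.33 ± 0.04.

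The shift was larger in the second cluster. For miR-195-5p it was 0.79 ± 0.05 on slide 2 and 0.59 ± 0.04 on slide 3, and for miR-497-5p 0.69 ± 0.04 and 0.48 ± 0.03. In every member all arrays of slide 1 lay below all arrays of the other slides, which held for 123 of the 215 miRNAs with 2 probes kept (57.2%), while in 8 (3.72%) they lay above. On slide 2, which holds both sexes, the shift was 0.55, 0.36, 0.79 and 0.67 in the 4 males and 0.58, 0.40, 0.79 and 0.70 in the 4 females, for miR-15b-5p, miR-16-5p, miR-195-5p and miR-497-5p. Slide accounted for 98.8%, 93.7%, 98.6% and 98.8% of the variance of this difference and dose for 14.5%, 14.2%, 17.1% and 13.6%. The medians over the 215 miRNAs were 85.3% and 16.0%.

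**Figure D3:**
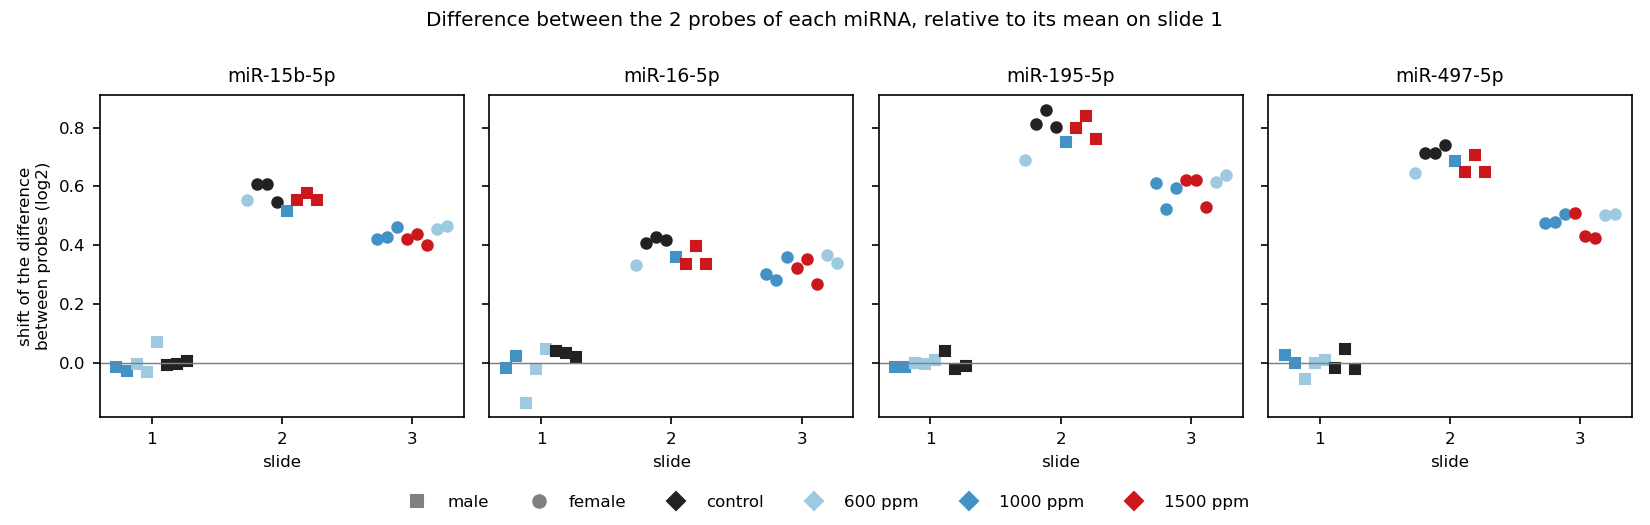
Log2 difference between the brighter and dimmer probe of each member, relative to its mean on slide 1 (y axis), for each array by slide (x axis), with sex and dose marked. Each slide forms a tight group, and males and females of slide 2 lie together, as do the doses within a slide.

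Read probe by probe, the sex comparison gave both signs for the same miRNA. Male minus female on the brighter probe was -0.41 for miR-15b-5p, -0.16 for miR-16-5p, -0.17 for miR-195-5p and -0.16 for miR-497-5p (limma over 555 probes, adjusted p = 0.00203, 0.0359, 0.0874 and 0.103). On the dimmer probe it was -0.11, 0.07, 0.23 and 0.17 (adjusted p = 0.0634, 0.0614, 0.00198 and 0.00526). The dimmer probes of miR-195-5p and miR-497-5p were thus called higher in males, while their brighter probes were lower without being called. Once slide was a block, the probes of a member came together, at 0.03 and 0.03 for miR-15b-5p, 0.19 and 0.17 for miR-16-5p, 0.19 and 0.16 for miR-195-5p, and 0.08 and 0.07 for miR-497-5p, and none was called. Over all probes 260 of 555 (46.8%) were called between the sexes without the block and 13 (2.34%) with it, and 67 of the 215 miRNAs (31.2%) had probes of opposite sign.

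**Figure D4:**
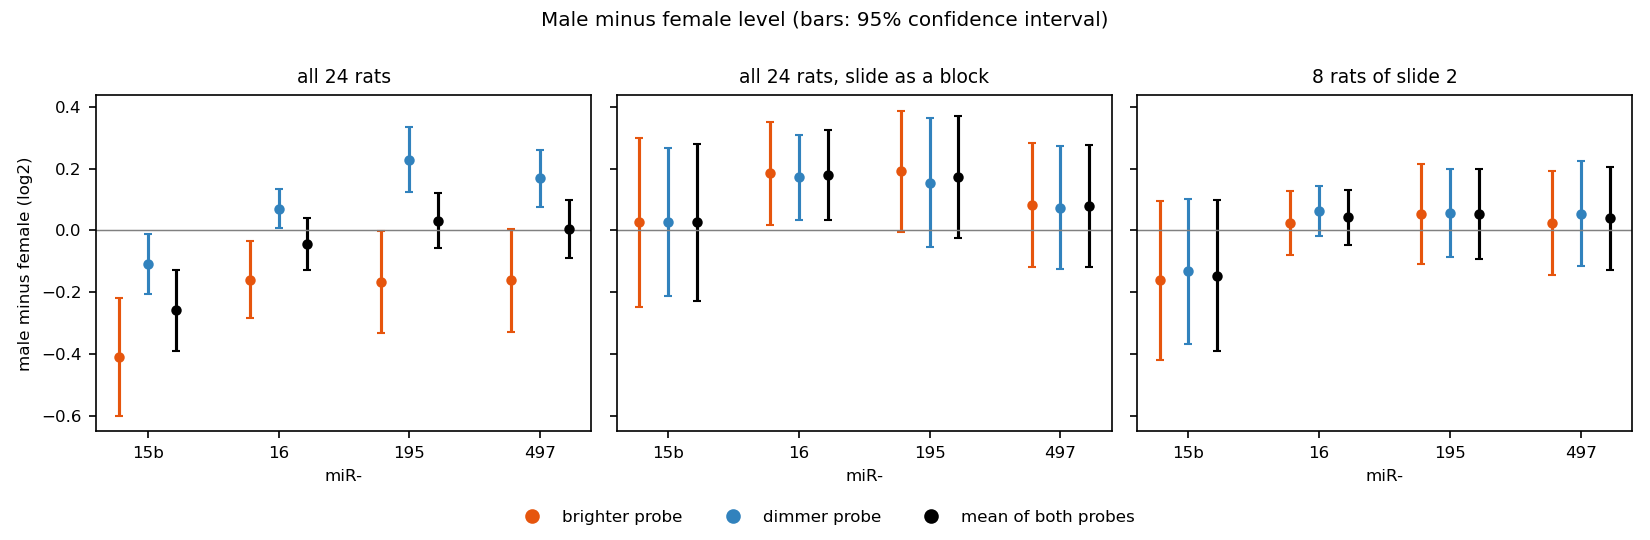
Male minus female difference (log2) of each member on the brighter probe, the dimmer probe and the mean of both, with bars for the 95% confidence interval. Left and middle, all 24 rats without and with slide as a block (n = 12 males and 12 females). Right, the 8 rats of slide 2 (n = 4 males and 4 females). Over all rats without the block the probes of miR-16-5p, miR-195-5p and miR-497-5p lie on opposite sides of 0 and both probes of miR-15b-5p lie below it. With the block the 2 probes of each member agree within 0.03.

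The response to 1500 ppm was compared between the sexes, a comparison in which the slide differs too, since all males at 1500 ppm and all control females were on slide 2. miR-15b-5p measured 9.01, 9.12 and 9.13 in control males and 9.15, 9.34 and 9.47 in males at 1500 ppm, without overlap. In females it measured 9.48, 9.49 and 9.63 in the control group and 9.08, 9.35 and 9.36 at 1500 ppm, again without overlap but in the other direction. The difference from the control group was 0.23 in males (limma adjusted p = 0.0825) and -0.27 in females (0.285), and neither was called by itself; among females 0 of 283 miRNAs were (0%). The male minus female response was 0.50 ± 0.14 (SE, adjusted p = 0.0124) and was called, along with 100 of 283 miRNAs (35.3%), 60 higher (21.2%) and 40 lower (14.1%). Adding the slide block gave 0.41 ± 0.23 (adjusted p = 0.830), with 0 called and 9 (3.18%) at an unadjusted p below 0.05. In this and every other blocked fit by dose and sex, the offset between slides 1 and 2 rests on male 13 against males 11 and 12 at 1000 ppm. That between slides 2 and 3 rests on female 26 against females 27 and 28 at 600 ppm. Blocked values are therefore imprecise, and a lost call does not show that slide made the difference, which was not tested.

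miR-497-5p was the other member called in that comparison. It measured 10.60, 10.61 and 10.67 in control males and 10.70, 10.85 and 10.90 in males at 1500 ppm, which did not overlap. In females it measured 10.64, 10.68 and 10.80 in the control group and 10.55, 10.59 and 10.68 at 1500 ppm, which did. Its male minus female response was 0.29 ± 0.10 (limma adjusted p = 0.0355), and leaving out any 1 of 7 rats ended the call (control males 1 and 2, control female 23, males 17 and 18 and females 36 and 37 at 1500 ppm; adjusted p = 0.0633 to 0.0946). Adding the slide block gave -0.03 ± 0.17 (adjusted p = 0.964). miR-16-5p and miR-195-5p gave 0.24 and 0.20 (adjusted p = 0.0589 and 0.128), and 0.09 and 0.02 with the block. In the series table without scaling, where the median response over all miRNAs was -0.79, the members stood at -0.32, -0.59, -0.55 and -0.46 in the order miR-15b-5p, miR-16-5p, miR-195-5p and miR-497-5p, so the sign of all 4 turned.

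The probes again parted. In males, 1500 ppm minus control on the brighter probe was 0.51, 0.30, 0.48 and 0.52 for miR-15b-5p, miR-16-5p, miR-195-5p and miR-497-5p (limma over 555 probes, adjusted p = 0.00337, 0.0139, 0.00146 and 0.00100), and all 4 were called. On the dimmer probe it was -0.05, -0.03, -0.31 and -0.14, and that of miR-195-5p was called in the opposite direction (adjusted p = 0.00479). Of the 555 probes 237 were called there (42.7%), and 0 with slide as a block. Per miRNA, 1500 ppm minus control in males was 0.23 for miR-15b-5p, 0.13 for miR-16-5p, 0.08 for miR-195-5p and 0.19 for miR-497-5p, with none called (adjusted p = 0.0825, 0.137, 0.402 and 0.0503) against 102 of 283 miRNAs (36%). Scaling to the 75th percentile of all probes moved the median of all miRNAs there from 0.04 to 0.19 and called all 4 members higher, as it did 113 of 283 miRNAs (39.9%). The series table without scaling moved it to -0.71 and called all 4 lower, as it did 215 of 325 miRNAs (66.2%).

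A test of any dose within males called miR-497-5p (F = 5.79, limma adjusted p = 0.0208) among 100 of 283 miRNAs (35.3%). Leaving out male 11 or 12 at 1000 ppm, or male 17 or 18 at 1500 ppm, ended that call (adjusted p = 0.0527 to 0.0939), and under the slide block it was 0.550, where 0 miRNAs were called. The adjusted p of the other members was 0.0886 to 0.219. Within females 0 miRNAs were called (0%), with 42 (14.8%) at an unadjusted p below 0.05. The interaction of dose and sex over all doses called 71 miRNAs (25.1%) and no member (adjusted p = 0.0528, 0.106, 0.118 and 0.0644), and adding slide to the model left 0 called (0%).

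The differences between members inside an array, in which the scaling cancels, moved little with dose. Set to 0 at the control mean, miR-195-5p minus miR-497-5p was -0.04 ± 0.08, -0.0067 ± 0.06 and -0.06 ± 0.04 at 600, 1000 and 1500 ppm (SD, n = 6). miR-15b-5p minus miR-16-5p was -0.15 ± 0.12, -0.05 ± 0.14 and -0.03 ± 0.14. The latter was -0.17 ± 0.07 in control males and 0.17 ± 0.02 in control females, which sat on slides 1 and 2. By slide it averaged -0.20 ± 0.07, 0.0040 ± 0.17 and 0.03 ± 0.08 for slides 1, 2 and 3 (n = 8 each).

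From rat to rat the members of the miR-497 and miR-195 cluster rose and fell together. After the mean of each slide was taken off, miR-195-5p and miR-497-5p had Pearson's r = 0.79 and Spearman's rho = 0.78 over 24 rats (permutation adjusted p = 6.0e-05 and 0.00012 over the 6 pairs, raw p for r = 1.0e-05, the smallest the 100000 draws can give). The value was 0.79, 0.93 and 0.71 within slides 1, 2 and 3, and 0.69 without the 2 rats farthest from the median. By r, miR-497-5p was the 1st of 282 miRNAs for miR-195-5p, and miR-195-5p the 2nd of 282 for miR-497-5p. All arrays share their scaling, which enters every such correlation.

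miR-16-5p and miR-195-5p, which share most bases but not a cluster, had r = 0.63 and rho = 0.60 (permutation adjusted p = 0.00381 and 0.0119), with 0.95, 0.38 and 0.63 within the slides and 0.59 without the 2 farthest rats. With dose means also taken off the adjusted p of rho was 0.0668. Whether the probes of these members bind only their own miRNA was not tested. By r, miR-195-5p ranked 17th of 282 for miR-16-5p, and miR-16-5p ranked 15th of 282 for miR-195-5p, so other miRNAs correlated more strongly with each. The neighbours miR-15b-5p and miR-16-5p had r = 0.51 and rho = 0.37 (permutation adjusted p = 0.0178 and 0.165), with 0.70, 0.15 and 0.77 within the slides and 0.37 without the 2 farthest rats. For miR-15b-5p, miR-16-5p ranked 19th of 282, and for miR-16-5p, miR-15b-5p ranked 44th. The remaining pairs had r = 0.37 (miR-15b-5p and miR-195-5p), 0.30 (miR-16-5p and miR-497-5p) and 0.13 (miR-15b-5p and miR-497-5p), with permutation adjusted p-values of 0.116, 0.116 and 0.562.

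**Figure D5:**
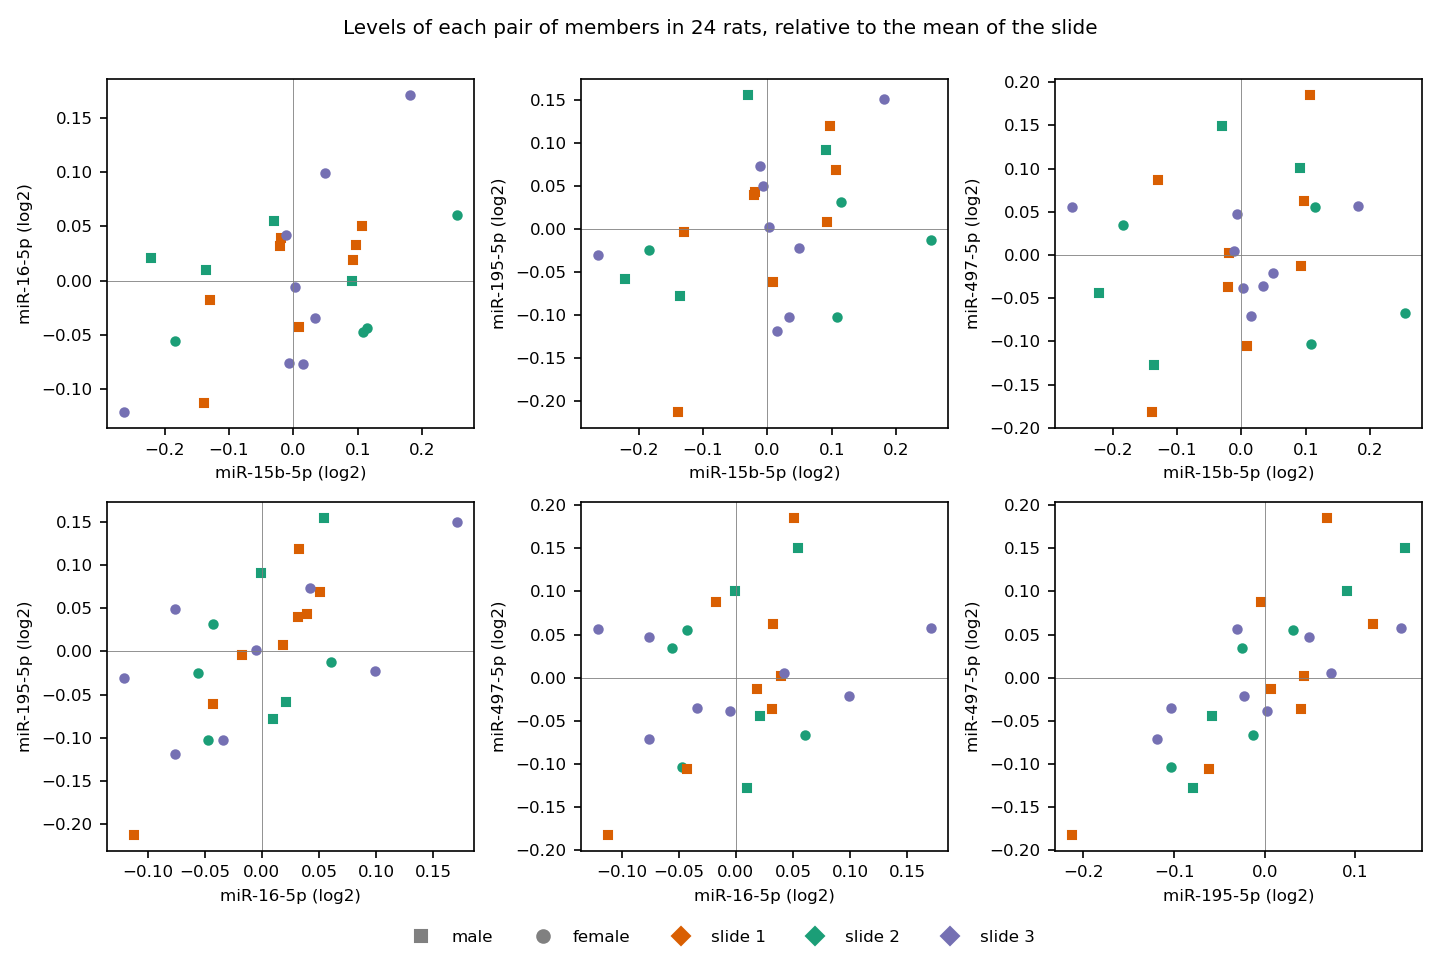
Log2 levels of each pair of members relative to the mean of the slide (both axes, log2) in 24 rats, with slide and sex marked. miR-195-5p and miR-497-5p lie along a line (r = 0.79), whereas miR-15b-5p and miR-497-5p form a cloud (r = 0.13).

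Outside the members, the miRNAs most like each member after slide means were taken off were not among the 6 that share bases 2 to 7 of the seed. For miR-15b-5p they were miR-7a-1-3p, miR-362-3p and miR-425-5p (r = 0.80, 0.79 and 0.75 over 24 rats, 279 candidates). For miR-16-5p they were miR-26b-5p, miR-30e-5p and miR-199a-3p (0.80, 0.79 and 0.73). For miR-195-5p they were miR-30e-3p, miR-186-5p and miR-30c-5p (0.77, 0.72 and 0.71), and for miR-497-5p miR-103-3p, miR-24-3p and miR-125a-5p (0.81, 0.79 and 0.75). These are descriptions and carry no test.

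The other reference miRNAs with bases 2 to 7 of the seed are both on the array and encoded on chromosome X. They are shown to set their 5′ ends beside those of the members, with bases 2 to 8 in capitals.
rno-miR-322-5p: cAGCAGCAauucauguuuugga
rno-miR-503-5p: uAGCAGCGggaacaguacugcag
They lie on the minus strand of GRCr8, at chrX:137726198-137726219 for miR-322-5p, the rat counterpart of miR-424, and at chrX:137725899-137725921 for miR-503-5p. miR-322-5p has the full seed and miR-503-5p only bases 2 to 7 of it. miR-322-5p was 10.67 ± 0.08 in the control group (SD, n = 6) and differed by -0.01, -0.07 and 0.03 at the 3 doses, with none called. It was higher in males by 0.10 ± 0.04 (limma adjusted p = 0.0461), and by 0.26 with slide as a block (adjusted p = 0.152). miR-503-5p was 6.58 ± 0.15 in the control group and differed by 0.02, 0.0027 and 0.14, with none called. Its male minus female response at 1500 ppm was 0.50 (limma adjusted p = 0.0037) before and 0.33 (adjusted p = 0.830) after slide was added as a block.

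The other arms of the members' hairpins were near background. miR-15b-3p was above it on 3 arrays, miR-195-3p on 2, and miR-16-3p and miR-497-3p on 0, so none was tested.

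Other miRNAs that act on the cell cycle were also read by dose. Of 15 repressors of other seed families, such as let-7, miR-34 and miR-29, 0 were called at any dose, and their median differences were 0.05, 0.05 and 0.15 at 600, 1000 and 1500 ppm against 0.02, -0.01 and 0.0021 over all 283. Between the sexes 7 of the 15 were called, against the 43.8% over all 283, with 1 higher in males (miR-145-5p, 0.40) and 6 lower, among them miR-34c-5p (-0.39), let-7b-5p (-0.29) and let-7d-5p (-0.19). Of 12 miRNAs that promote proliferation, such as those of the miR-17-92 cluster, 0 were called at any dose and 4 were lower in males, among them miR-92a-3p (-0.42) and miR-20a-5p (-0.16), against 27.6% lower over all 283. Both counts are near those shares and are no result about the lists. No member of either list was called at any dose or between the sexes once slide was a block.

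Markers of cell types in lung tissue were called between the sexes in 6 of 20 cases (30%), below the 43.8% of all 283 miRNAs. Of the leukocyte markers 2 of 4 were lower in males, where their summed scaled intensity was 3184 to 4098 against 3408 to 4999 in females. Of the red cell markers 1 of 3 was higher in males, and their sum was 1057 to 3163 in males and 1088 to 2679 in females. By slide the sum was 2088 to 3163 on slide 1, 1057 to 1879 on slide 2 and 1416 to 2679 on slide 3. Both endothelial markers and 1 of 2 smooth muscle markers were higher in males, 0 of 5 epithelial markers were called, and the 4 striated muscle markers tested summed to 145 to 1373 with 0 called. The slide block left 0 of these markers called between the sexes. Their part in the miR-15b-5p difference was not tested.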

How the data were processed

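Lung RNA of 24 rats was measured on single-colour rat miRNA arrays. The deposited scanner files hold spot intensity, background-corrected within each array by Agilent Feature Extraction 11.5.1.1, and the design file names build rn4 (per the file headers). The deposited series table equals the total gene signal of the same software, a linear intensity with values at or below 1 set to 1 and no scaling between arrays. The median of each of its columns is 1.

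Processed signals were scaled so that the 75th percentile over 394 probes detected on all arrays was 865, floored at 11.3 (8.59% of spots), and put on the log2 scale, after which the spots of a probe and then the probes of a miRNA were averaged. Probes were kept where the majority of spots passed the scanner's background test on 6 or more arrays, which left 555 probes and 283 miRNAs, 211 of them with signal on all arrays. No spot was saturated, and 59 of 1920 member spots carried an outlier mark and were left out. Tests used limma 3.58.1 (lmFit and eBayes, two-sided) in R 4.3.3 with 1 mean per dose group, or per dose and sex, and Benjamini-Hochberg adjustment. Groups came from the sample labels, with each rat as a replicate, and slides from the barcode in the headers. Correlations used permutation tests with 100000 draws within slides. Scripts were tested on simulated data. Array data give no read depth, and the number of arrays limits the precision.

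The members and the miRNA lists were chosen with earlier results of these data known, and so were the alternatives. Named miRNAs were the members, same-seed relatives, the other arms, the 3 miRNAs most like each member, and up to 3 list examples of smallest p. Sequences and coordinates came from RefSeq by name, and 641 of 719 array miRNAs matched.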

Additional observations from a re-analysis of the deposited data

Results flagged for a closer look

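The difference in response at 1500 ppm between males and females was called for 2 members, by a test of the difference itself. It was 0.50 for miR-15b-5p, where all 3 males at 1500 ppm were above the control males and all 3 females below the control females, and 0.29 for miR-497-5p. The same test called 100 of 283 miRNAs (35.3%), and with slide as a block neither member was called (limma adjusted p = 0.830 and 0.964) and 0 miRNAs were. That block rests on the males at 1000 ppm and the females at 600 ppm, the only groups of 1 sex split over slides. With the dimmest probe only, the difference in response was 0.14 for miR-15b-5p and -0.17 for miR-497-5p. In the series table without scaling it was -0.32 and -0.46. Among the 16 sets of 6 rats, 1 for each member and dose, no rat stood apart by Dixon's test, which flags about 1 in 20 by chance.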

How the results depend on the processing

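No paired analysis was possible because the replicate numbers are animal numbers and the groups share none. The calls of dose at 600, 1000 and 1500 ppm stayed at 0 miRNAs under all scalings and filters run except the series table as deposited (1 at 1500 ppm), and an unmoderated unpaired test gave 5, 21 and 28 miRNAs at an unadjusted p below 0.05 and 0 after adjustment. The trend with dose, 0 in the chosen setting (29 at an unadjusted p below 0.05), gave 5 with a lower floor, 1 with the series table and 3 with sex as a covariate. The 124 miRNAs between the sexes became 147 with the brightest probe, 83 with the 75th percentile of all probes, 77 without a filter and 62 with the series table. They became 10 with slide as a block, 0 with slide as a random block and 20 within slide 2. The 71 of the interaction became 18 with total gene signal and 0 with either slide block. The 100 of any dose in males became 66 with total gene signal, 0 with slide as a block and 1 with the random block, and the 0 in females became 1 with the 75th percentile of all probes, 1 without a filter and 2 with normexp. Members called between slides 2 and 1 in males, 2 in the chosen setting, were 4 with the 75th percentile of all probes or the brightest probe, 1 with quantile normalization, normexp, the series table or the dimmest probe, and 0 with total gene signal. Between slides 3 and 2 in females 1 was called with the brightest probe, and within slide 3 1 at 1500 against 600 ppm with the series table, both against 0.

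Leaving out 1 rat at a time gave 0 to 2 miRNAs for the trend, 0 to 5 for any dose in females, 59 to 116 for any dose in males (lowest without male 18 at 1500 ppm), 96 to 133 between the sexes and 34 to 102 for the interaction (lowest without male 18 at 1500 ppm, highest without male 13 at 1000 ppm). Among the member differences whose sign turned, the ranges were -0.078 to 0.045 for miR-15b-5p at 1500 ppm, -0.068 to 0.0064 for miR-16-5p at 1000 ppm, -0.0077 to 0.038 for miR-16-5p at 1500 ppm, -0.024 to 0.022 for miR-16-5p at 600 ppm, -0.057 to 0.018 for miR-195-5p at 1500 ppm, -0.011 to 0.039 for miR-497-5p at 600 ppm and -0.016 to 0.020 for miR-497-5p between the sexes.

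Differences of either sign around 0 turned as follows, in log2, on the side of the threshold they had before, save in 3 settings. With the series table, 1500 ppm in males was called for all 4 members, and the response at 1500 ppm by sex for miR-16-5p and miR-195-5p in place of miR-15b-5p and miR-497-5p. The dimmest probe called miR-195-5p in both and lost miR-497-5p in the latter, and the slide block lost miR-15b-5p between the sexes and miR-497-5p in that response. The cause was not tested. With the 75th percentile of all probes, 1000 ppm was 0.00046 for miR-16-5p, and 1500 ppm was 0.037 for miR-15b-5p and 0.039 for miR-195-5p. With quantile normalization, 600 ppm was -0.030 for miR-497-5p, and 1500 ppm was -0.049 for miR-16-5p. There male minus female was 0.028 for miR-16-5p, and 1500 ppm in males was -0.011 for miR-16-5p and -0.013 for miR-195-5p. With the brightest probe, 600 ppm was -0.036 for miR-497-5p, and 1500 ppm was 0.080 for miR-15b-5p and 0.12 for miR-195-5p. There male minus female was -0.17 for miR-195-5p and -0.16 for miR-497-5p. With normexp, 600 ppm was -0.030 for miR-497-5p, and 1500 ppm was -0.050 for miR-16-5p. There male minus female was 0.015 for miR-16-5p, and 1500 ppm in males was -0.032 for miR-16-5p. With total gene signal, 1500 ppm was -0.046 for miR-16-5p and -0.0074 for miR-497-5p, and male minus female was 0.040 for miR-16-5p. There 1500 ppm in males was -0.013 for miR-16-5p and -0.0045 for miR-195-5p. With the series table, 600 ppm was -0.065 for miR-497-5p, and 1000 ppm was 0.041 for miR-16-5p. There 1500 ppm was -0.24 for miR-16-5p and -0.20 for miR-497-5p, and male minus female was 0.13 for miR-16-5p. In that table the response at 1500 ppm by sex was -0.32 for miR-15b-5p, -0.59 for miR-16-5p, -0.55 for miR-195-5p and -0.46 for miR-497-5p, and 1500 ppm in males was -0.43 for miR-15b-5p, -0.53 for miR-16-5p, -0.53 for miR-195-5p and -0.43 for miR-497-5p. With the dimmest probe, 600 ppm was 0.033 for miR-16-5p and 0.019 for miR-195-5p, and 1500 ppm was -0.043 for miR-16-5p and -0.056 for miR-497-5p. There male minus female was 0.071 for miR-16-5p, and the response at 1500 ppm by sex was -0.31 for miR-195-5p and -0.17 for miR-497-5p. There 1500 ppm in males was -0.047 for miR-15b-5p, -0.028 for miR-16-5p, -0.31 for miR-195-5p and -0.14 for miR-497-5p. With a slide block, 600 ppm was 0.013 for miR-16-5p and 0.0021 for miR-195-5p, and 1500 ppm was -0.042 for miR-16-5p. There male minus female was 0.026 for miR-15b-5p and 0.18 for miR-16-5p, and the response at 1500 ppm by sex was -0.028 for miR-497-5p. There 1500 ppm in males was -0.039 for miR-15b-5p, -0.092 for miR-16-5p and -0.052 for miR-195-5p. With a random slide block, 600 ppm was 0.011 for miR-16-5p, and 1500 ppm was -0.034 for miR-16-5p. There male minus female was 0.065 for miR-16-5p. Within slide 2, male minus female was 0.043 for miR-16-5p.

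The choice of the dimmest probe, the tests on single probes, the sex comparison within slide 2 and the repeats of the response at 1500 ppm were added after the data were seen. Pearson's r of each pair of members kept its sign and its side of the threshold when dose means were also taken off, whereas Spearman's rho of miR-16-5p and miR-195-5p fell to 0.46 (permutation adjusted p = 0.0668). With 6 rats a group, 95% intervals of the dose differences reached down to -0.39 for miR-15b-5p and -0.22 for the other members, so changes of that size are not excluded. Slide and dose cannot be told apart in females between the control group and 1500 ppm, nor in males. Within slide 2, sex and dose cannot be told apart.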
